A study of Mus musculus with 4 samples.

Results

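Slc2a1, Hk1, Hk2, Pfkp, Aldoa, Pgk1, Eno1, Ldha, Pdk1 and Slc16a3 carry glucose into the cell, along glycolysis and out of the cell as lactate, and they are known as genes that hypoxia inducible factors (HIF) switch on. They were chosen by name, and all exons of these 10 genes in the deposited table were read, 208 of the 234718 exons listed. The table covers 22835 genes once its exons are matched to protein coding, pseudogene and lincRNA genes of GENCODE release M21. All 10 genes were above 10 RPKM in all 3 libraries used here, so none was lost to a filter on low values. RPKM is the number of reads per kb of exon, scaled to the aligned reads of the library.

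The RNA came from 4 kinds of cultured mouse cells, with 1 library each. Wild-type mouse embryonic fibroblasts (MEFs) were at passage 3. Mitf knock-in MEFs at passage 5 were left without doxycycline, called Dox (-), or received it in the medium for 6 days, called Dox (+). Primary mouse melanocytes (PMel) were not analysed here. Both knock-in cultures carried the transactivator ROSA26-M2rtTA, which every cell expresses, and Col1a1-TetO-Mitf, the Dox-switched M isoform of Mitf made in melanocytes, together with an mCherry marker and a puromycin cassette. The alleles came from 1 correctly targeted embryonic stem cell clone that was injected into blastocysts, so the fibroblasts were grown from chimeric embryos, and the markers allow knock-in cells to be purified from host cells. The wild-type library had neither allele, and it differed from the knock-in libraries in passage as well. None of the libraries compared was from wild-type cells with Dox, so Mitf induction and Dox itself cannot be told apart.

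Glycolysis turns glucose into pyruvate in a chain of enzyme steps and yields ATP without oxygen. Pyruvate is then burned in mitochondria or reduced to lactate and exported. When oxygen is short, or when HIF is stabilized for other reasons, HIF binds short sites near the genes of this chain and raises their transcription, and it also raises the kinase that keeps pyruvate out of mitochondria. Many melanoma cells rely on this chain, and MITF has been tied both to HIF and to energy metabolism in the melanocyte lineage.

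The core of the HIF site is ACGTG or GCGTG, and promoters of the 10 genes were searched for it because HIF control is what these genes are known for. RefSeq gives 17 start sites for the 10 genes, all 10 of which matched by symbol, and the 250 bases upstream of each were searched on both strands. ACGTG was present in 7 of these 17 windows and in 6 of the 10 genes (Aldoa, Hk2, Ldha, Pgk1, Slc16a3 and Slc2a1), against 16.6% of all 32851 promoter windows. GCGTG was present in 8 windows and 6 genes (Eno1, Hk1, Ldha, Pdk1, Pfkp and Slc2a1), against 28.2% of all windows and 43.9% of the 9082 windows whose GC content was like that of the 10 genes, so this share was near that background. For ACGTG the share of windows of like GC content was 21.8%. Either core was found in 14 windows and in all 10 genes, against 38.6% of all windows and 55.2% of those of like GC content. All these shares are of single windows, so they are a background for the counts of windows and not for the counts of genes. The windows of the 10 genes had a median GC content of 64%, and all windows one of 52.4%. CATGTG, an E-box that MITF binds, was in 1 window, at Hk1, against 12.3% of all windows and 7.58% of those of like GC content. CACGTG, the E-box form that contains ACGTG on both strands, was in 1 window, at Ldha, against 6.02% of all windows and 8.64% of those of like GC content. For either E-box, 1 of 17 windows is not far from the share at like GC content. A match is a string of letters in a window, not a bound site, and some genes have several overlapping windows.

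Of the windows with ACGTG, 5 are printed. Slc16a3 and Slc2a1 had the largest differences between Dox (+) and Dox (-) on the highest exon, and Hk2 had the largest between Dox (+) and MEF. The others are from the lactate dehydrogenase gene with both E-box and HIF letters, and from Pgk1. Aldoa also has ACGTG but is not printed, although its fold between Dox (+) and Dox (-), 3.29, was near that of Hk2, 3.26. Each is the RefSeq sequence of the mouse genome GRCm38.p6 from 5′ to 3′ on the strand of the gene, and capitals mark ACGTG or GCGTG on either strand.
Slc2a1 (chr4:119108495-119108744, plus strand): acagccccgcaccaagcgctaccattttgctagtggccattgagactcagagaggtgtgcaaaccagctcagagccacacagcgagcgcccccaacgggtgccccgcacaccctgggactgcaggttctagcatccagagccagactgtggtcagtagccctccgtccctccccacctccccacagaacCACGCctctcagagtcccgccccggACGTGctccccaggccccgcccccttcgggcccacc
Hk2 (chr6:82774455-82774704, minus strand): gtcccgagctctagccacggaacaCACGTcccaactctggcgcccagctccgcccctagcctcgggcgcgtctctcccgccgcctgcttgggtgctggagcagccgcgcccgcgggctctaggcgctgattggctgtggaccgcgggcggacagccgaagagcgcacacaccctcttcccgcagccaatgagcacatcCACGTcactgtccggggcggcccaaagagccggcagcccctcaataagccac
Pgk1 (chrX:106186850-106187099, plus strand): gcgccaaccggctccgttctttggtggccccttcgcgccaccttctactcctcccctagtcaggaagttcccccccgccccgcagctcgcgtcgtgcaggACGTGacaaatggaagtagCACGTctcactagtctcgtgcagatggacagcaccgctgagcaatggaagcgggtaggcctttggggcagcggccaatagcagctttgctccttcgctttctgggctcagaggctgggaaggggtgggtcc
Ldha (chr7:46845554-46845803, plus strand): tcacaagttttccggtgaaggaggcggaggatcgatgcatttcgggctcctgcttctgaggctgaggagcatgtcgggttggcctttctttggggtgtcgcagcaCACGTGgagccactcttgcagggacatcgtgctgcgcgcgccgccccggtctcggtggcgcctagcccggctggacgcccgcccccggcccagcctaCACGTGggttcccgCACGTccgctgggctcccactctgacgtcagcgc
Slc16a3 (chr11:120948817-120949066, plus strand): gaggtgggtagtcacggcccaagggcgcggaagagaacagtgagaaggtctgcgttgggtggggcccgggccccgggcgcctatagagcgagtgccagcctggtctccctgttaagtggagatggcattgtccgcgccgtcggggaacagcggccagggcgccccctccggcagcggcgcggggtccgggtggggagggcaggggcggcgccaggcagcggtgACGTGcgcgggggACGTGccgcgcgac

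The 3 libraries differed in ways that touch the comparisons. Multiplied by exon length, the values returned whole reads for 96.8% to 97.1% of low exons at depths of 44000000 to 45000000 reads, and 3 reads on an exon of 150 bp correspond to 0.444 to 0.455 RPKM. Mitf itself had 1.52 RPKM in MEF, 30.8 in Dox (-) and 1544 in Dox (+), in the order of the labels. The summed level of 10 melanocyte markers was 6.15, 45.7 and 1816 RPKM in the same order. Mitf made up most of it in the knock-in libraries, and Tyrp1 and Dct were at 0 in MEF and Tyr was at 0 in Dox (-). In Dox (+) 4 of the 10 were above 10 RPKM, Mitf, Mlana (133), Tyrp1 (110) and Pmel (13). The others stayed low there, such as Tyr (2.37) and Dct (0.9), and Sox10 was lower than in Dox (-) (1.66 against 6.69). The sum therefore does not stand for a rise of the whole list. The 8 fibroblast markers were present in every library, with summed levels of 18350, 45433 and 11942 RPKM. Col1a1, Col1a2 and Col3a1 made up most of each sum, and the markers did not move together. In Dox (+) against MEF these 3 were more than 2-fold lower, and 4 others (Thy1, Pdgfra, Dcn and Lum) were more than 2-fold higher. Of all genes, 8.98% were lower and 20.2% higher at that fold. The 8 macrophage markers summed to 54.4 RPKM in MEF, 12946 in Dox (-) and 473 in Dox (+), and Lyz2 alone had 10820 RPKM in Dox (-), so the Dox (-) library stands apart with all 8 of these markers more than 4-fold above both other libraries. The 5 keratinocyte markers summed to 62.3, 6.16 and 29.1 RPKM, with Krt5 at 0 in MEF. The values under the MEF label differ from the MEF values that the study lists, so results with this library describe the library labelled MEF. In addition, exons near the 5′ end had 0.478 times the level of exons near the 3′ end in MEF, 0.618 times in Dox (-) and 0.75 times in Dox (+) (median over 6901 genes).

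The Dox (+) library stood above Dox (-) in all 10 genes. The level of a gene was taken as its highest exon, as in the methods of the study. Every gene was more than 2-fold higher, whereas 10.8% of the 13307 genes above 10 RPKM in either library passed that fold. At more than 4-fold, the threshold of the study, 2 genes passed, Slc2a1 and Slc16a3, against 1.64% of all genes. None was lower at 2-fold or 4-fold, where 11.1% and 5.41% of all genes were. The median log2 fold change (with 1 RPKM added, which understates the change of low genes) was 1.47 over the 10 genes and 0.23 over all genes, and the smallest of the 10, that of Pgk1 (1.07), lay 0.85 above the median of all genes. Since each condition had 1 library, no replicate check and no test can be given, and intervals cover counting error only. In cultured cells measured in bulk, a change in the cells present and a change in RNA per cell cannot be told apart. The part of the macrophage markers and of the difference in 5′ coverage in these values was not tested. Each gene is also given against MEF, a comparison that leaves out the Dox (-) library, where the macrophage markers were highest. It does not lessen the difference in 5′ coverage. The ratio of 5′ to 3′ exons was 0.75 in Dox (+), and it was farther from this in MEF (0.478) than in Dox (-) (0.618).

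**Figure D1:**
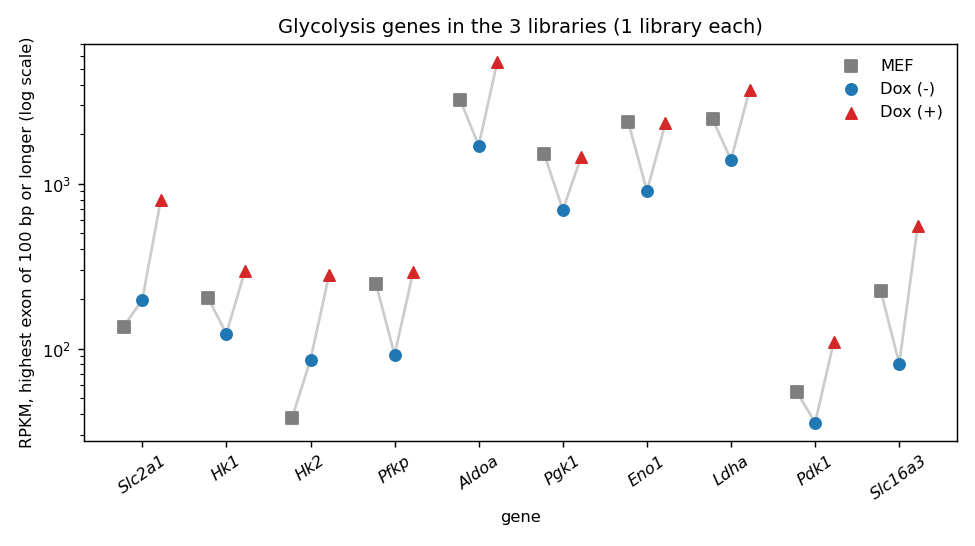
Level of the 10 genes in the 3 libraries, as RPKM of the highest exon of 100 bp or longer on a log axis, with squares for MEF, circles for Dox (-) and triangles for Dox (+), 1 library each and no error bars. Every triangle lies above its circle. In Slc2a1 and Hk2 the square is the lowest of the 3 symbols, and in the other 8 genes the circle is.

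Glucose uptake comes first. Slc2a1 (chr4:119108711-119137983, plus strand, all positions in mm10) encodes GLUT1, the glucose transporter of most proliferating cells. Its highest exon had 136 RPKM in MEF, 198 in Dox (-) and 796 in Dox (+). The 3 libraries were thus ordered MEF, Dox (-), Dox (+), an order that, on the highest exon, only Hk2 shared among the 10 genes. On the exon from 119132443 to 119132600, 5537 reads of Dox (+) stood against 1408 of Dox (-), a 4.02-fold difference (95% interval 3.79 to 4.27). Against MEF the same exon was 6.18-fold higher (5.76 to 6.63). All 16 exon positions of Slc2a1 stood above Dox (-) in the Dox (+) library, by 3.83-fold to 6.91-fold, and 14 of them by more than 4-fold. Here and below, positions that overlap share reads, so counts of positions are not counts of separate measurements. The 4-fold call of Slc2a1 rests on a fold close to that threshold, and it was lost when the libraries were scaled to the median of all genes (log2 fold change 1.77) or to housekeeping genes (1.72) and when the last exon was read (1.92).

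The hexokinases trap glucose in the cell as glucose 6-phosphate. Hk2 (chr6:82725025-82774454, minus strand), the inducible form that sits on mitochondria, had 37.8 RPKM in MEF, 85.6 in Dox (-) and 279 in Dox (+). It stood 3.26-fold above Dox (-) in Dox (+) (2.90 to 3.66, 1226 reads against 385) and 7.38-fold higher than in MEF (6.28 to 8.71). On the highest exon this was the largest difference to MEF among the 10 genes, whereas Slc2a1 exceeded Hk2 with the median over exons (log2 fold changes of 2.90 and 2.77) and on the last exon (2.29 and 2.13). All 22 exon positions were higher in Dox (+) in both comparisons. Hk1 (chr10:62268855-62379908, minus strand), the form found in most tissues, had its highest value on an annotated exon of only 3 bp, with 2044, 1689 and 4379 RPKM in MEF, Dox (-) and Dox (+). A read that only touches such an exon counts in full, so this level cannot be set beside those of other genes. On exons of 100 bp or longer Hk1 reached 203, 123 and 296 RPKM, in the same order of libraries. Its fold on the short exon was 2.59 (2.22 to 3.04), and the median over 43 exon positions was 2.50. Compared on exons of 100 bp or longer, Hk1 was 5.38 times Hk2 in MEF, 1.44 times in Dox (-) and 1.06 times in Dox (+). With the median over exons, Hk1 and Hk2 had 30.9 and 20.7 RPKM in MEF, 33.0 and 37.3 in Dox (-) and 96.4 and 148 in Dox (+), so Hk2 was then above Hk1 in both knock-in libraries. That median takes in the nearly empty 5′ exons of Hk1 described below, which lower it, and Hk2 had no such exons. On the last exon, Hk1 and Hk2 had 22.9 and 18.2 RPKM in MEF, 18.2 and 26.3 in Dox (-) and 47.8 and 83.1 in Dox (+). Which hexokinase gene was higher in the knock-in libraries depended on the measure, and Hk1 was above Hk2 in MEF by each.

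Among the 43 exon positions of Hk1, Dox (+) exceeded Dox (-) at 29 and was lower at 14, and these 14 were the only lower positions among the 201 positions of the 10 genes with more than 3 reads. They lie at the 5′ end and are nearly empty. The 12 farthest of them, from 62353058 to 62379908 on chromosome 10, each had exactly 5 reads in MEF, 13 in Dox (-) and 10 in Dox (+). Such equality arises when a spliced read is counted on every exon that its gap spans, and how gaps were treated is not given in the sources used here. The same pattern was seen at the testis form of lactate dehydrogenase, Ldhc, beside Ldha, where 9 of 10 exon positions had 213, 162 and 462 reads. Alternative start exons, and splice forms that choose between neighbouring exons, cannot be read from this table.

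Phosphofructokinase commits the sugar to glycolysis. Pfkp (chr13:6579768-6648777, minus strand), its platelet form, had 375 RPKM in MEF, 151 in Dox (-) and 436 in Dox (+) on an exon of 44 bp, and 245, 91.7 and 291 RPKM on exons of 100 bp or longer. Dox (-) was the lowest library, and MEF and Dox (+) were close. The fold between Dox (+) and Dox (-) was 2.89 (2.53 to 3.31) and that to MEF 1.16 (1.05 to 1.29). Along the gene the fold between Dox (+) and Dox (-) ran from 5.28 at the exons of the 5′ end to 1.79 at the last exon, part of which overlaps the neighbouring gene Pitrm1. Against MEF the same exons ran from 2.11 to 0.849. How high Pfkp stood in Dox (+) therefore depended on the exon read, and the direction to MEF did too. Read on the last exon with the overlap, Pfkp was not past 2-fold (0.81 on the log2 scale).

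**Figure D2:**
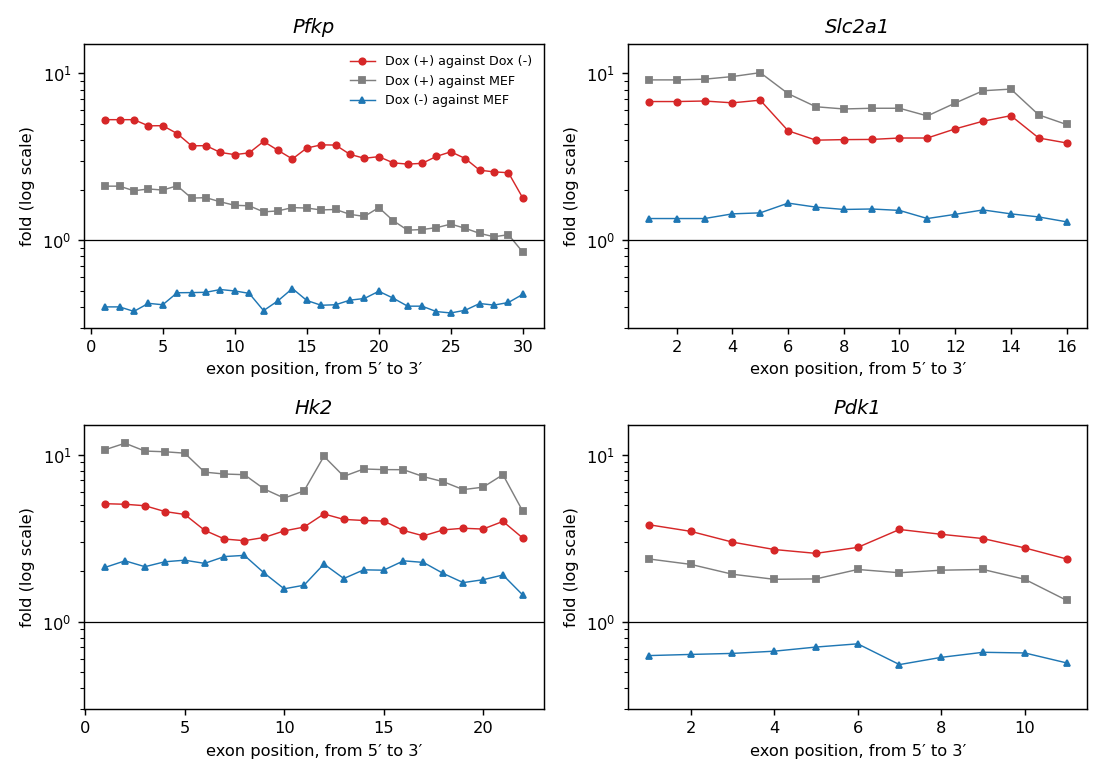
Fold at each exon position of Pfkp, Slc2a1, Hk2 and Pdk1, ordered from 5′ to 3′, on a log axis, with circles for Dox (+) against Dox (-), squares for Dox (+) against MEF and triangles for Dox (-) against MEF. In Pfkp the folds of Dox (+) decline toward the 3′ end, to 1.79 and 0.849 at the last exon, part of which overlaps Pitrm1. Those of Dox (-) against MEF stay between 0.367 and 0.514.

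The steps after phosphofructokinase are run by abundant enzymes, among them Aldoa, Pgk1 and Eno1. Aldoa (chr7:126795234-126800751, minus strand), the aldolase of muscle and most cultured cells, had 3226 RPKM in MEF, 1703 in Dox (-) and 5478 in Dox (+) on exons of 100 bp or longer, the highest level of the 10 genes in each library on that scale. Its highest exon of any length, 38 bp, had 6799, 3660 and 12060 RPKM. There, 20165 reads stood against 6259, a 3.29-fold difference between Dox (+) and Dox (-) (3.20 to 3.39), and the fold to MEF was 1.77 (1.73 to 1.82). Dox (+) exceeded Dox (-) at all 20 exon positions, while against MEF 16 were higher and 4 lower.

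Pgk1 (chrX:106187100-106203699, plus strand) encodes phosphoglycerate kinase, the step that returns ATP. Its last exon had 1509 RPKM in MEF, 694 in Dox (-) and 1461 in Dox (+). Dox (+) was 2.11-fold above Dox (-) (2.06 to 2.15), the smallest fold of the 10 genes on the highest exon, which went below 2-fold under either scaling (0.84 and 0.79 on the log2 scale), and 0.968 times MEF (0.953 to 0.984). Of its 11 exons, 9 consist wholly of 50-base words that also occur in other genes, above all in the near copy Pgk1-rs7. Those 9 exons had 1.74 to 775 RPKM in MEF. Only the last exon is free of shared words, and it carried the highest value in each library. Pgk1-rs7 itself was listed at 1485, 709 and 1660 RPKM, so reads of these genes may be divided between both loci, and the last exon is the position read here. Of 7 near copies of the 10 genes that were looked up, 5 had listed exons. The 4 above 10 RPKM (Eno1b, Aldoart1, Pgk1-rs7 and Ldhc) all stood more than 2-fold above Dox (-) in Dox (+), where 10.8% of all genes did. Their reads may come in part from the 10 genes, so they cannot be counted as 4 further higher genes beside that share.

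Eno1 (chr4:150236721-150248879, plus strand), which encodes the enolase of most tissues, had 2353 RPKM in MEF, 904 in Dox (-) and 2329 in Dox (+). The fold between Dox (+) and Dox (-) was 2.58 (2.53 to 2.62), and against MEF it was 0.990 (0.976 to 1.00). Dox (-) was again the low library, with MEF and Dox (+) at nearly the same level. Its near copy Eno1b was listed at 2482, 886 and 2728 RPKM, and 9 of the 19 Eno1 exons long enough to be compared consist only of words shared with other genes, so the split of reads between Eno1 and Eno1b is uncertain. The exon from 150246570 to 150246767 behaved unlike its neighbours, with 22 reads in MEF, 2524 in Dox (-) and 7874 in Dox (+). Its fold between the knock-in libraries lay within the range of the other Eno1 exons. In MEF it was nearly empty, although exons on either side of it held 13108 and 2862 reads. On Eno1 exons without shared words the highest exon of Dox (+) stood 0.24 above MEF on the log2 scale.

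Pyruvate goes to lactate or to the mitochondria. Ldha (chr7:46841475-46855627, plus strand) encodes the lactate dehydrogenase subunit that favours lactate, and it had 2460 RPKM in MEF, 1399 in Dox (-) and 3698 in Dox (+). Dox (+) stood 2.64-fold above Dox (-) (2.58 to 2.71) and was 1.5-fold higher than in MEF (1.47 to 1.54). All 12 exon positions were higher in Dox (+) in both comparisons. Pdk1 (chr2:71873224-71903858, plus strand), the kinase that switches off pyruvate dehydrogenase, was far lower in level, at 71.6, 50.4 and 135 RPKM. On the exon from 71887382 to 71887458, 459 reads in Dox (+) stood against 132 in Dox (-), a 3.56-fold difference (2.92 to 4.35), and the highest exons of both libraries differed 2.69-fold. Against MEF it was 1.96-fold higher (1.68 to 2.31). Dox (+) was the highest library at all 11 exon positions of Pdk1.

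Slc16a3 (chr11:120948480-120960868, plus strand), the last gene of the chain, encodes MCT4, which exports lactate. It had 224 RPKM in MEF, 80.9 in Dox (-) and 554 in Dox (+), the largest fold between Dox (+) and Dox (-) among the 10 genes, 6.85 (6.25 to 7.53, 3512 reads against 524). Of its 16 exon positions 15 were more than 4-fold higher, and the remaining one, the farthest 5′ exon with 6 reads in Dox (+), was 1.23-fold higher. Against MEF the fold was 2.48 (2.33 to 2.64). MEF lay between the knock-in libraries here, 2.77 times Dox (-), so less of the contrast with Dox (-) remained when MEF was the reference. No exon of Slc16a3 shares 50-base words with another gene, which also holds for Hk2 and Pdk1.

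**Figure D3:**
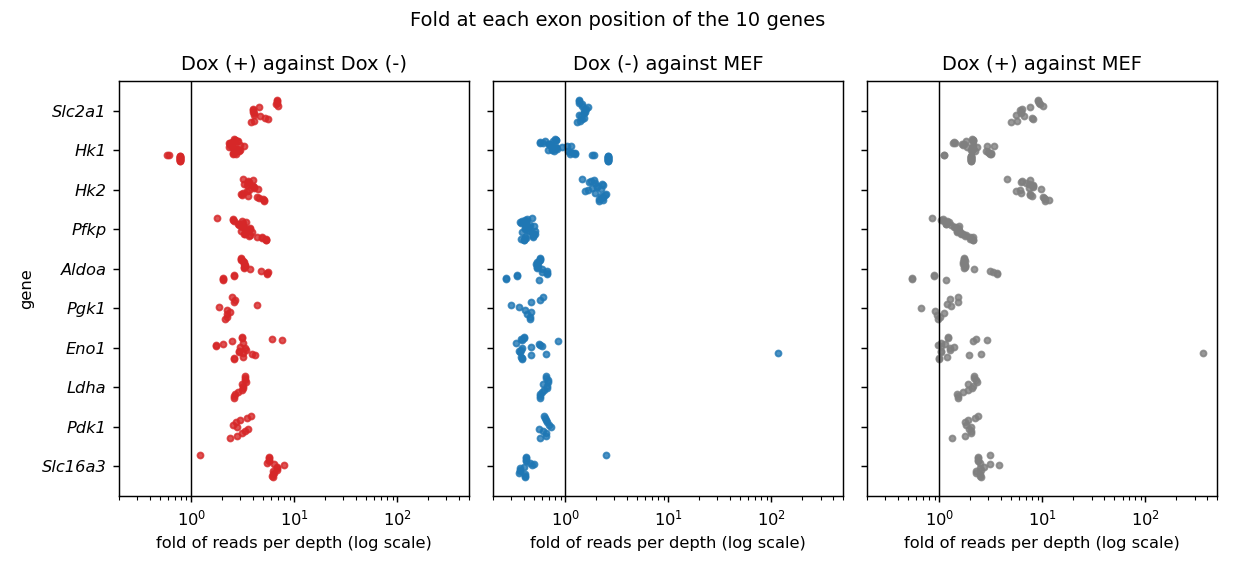
Fold of reads per depth at each exon position of the 10 genes with more than 3 reads in either library, on a log axis, 1 point per position and 1 panel per comparison. In Dox (+) against Dox (-) 187 of 201 points lie right of 1 and the 14 on the left belong to Hk1. Points of overlapping positions share reads. The lone point far to the right in both comparisons with MEF is the Eno1 exon with 22 reads in MEF.

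Dox (-) against MEF asked how the untreated knock-in cells stood beside wild-type cells. Of the 10 genes, 8 were lower in Dox (-) and 2 were higher, with a median log2 fold change of -0.85 over the 10 genes and 0.01 over all 13234 genes. Hk2 was 2.26-fold higher (1.89 to 2.73) and the only gene past 2-fold in that direction, where 17.3% of all genes were, and it did not pass when the median over exons or the last exon was used. Slc2a1 was 1.54-fold higher on the exon given above (1.41 to 1.67). Pfkp, Pgk1, Eno1 and Slc16a3 were more than 2-fold lower, 4 of 10 genes against 7.93% of all genes. Eno1 did not pass with the median over exons (-0.71 on the log2 scale), nor Pgk1 with housekeeping scaling (-0.81). On the highest exon Slc16a3 had the largest such difference, 0.361 times MEF (0.326 to 0.400), followed by Eno1 at 0.384 and Pfkp at 0.403. The direction of Hk1, 0.826 times MEF (0.690 to 0.988), turned to a log2 fold change of 0.09 when the median over exons was used and to 0.04 with housekeeping scaling. That median takes in the nearly empty 5′ exons of Hk1. No gene passed 4-fold in either direction, where 8.26% of all genes were higher and 1.21% lower. Of 201 exon positions, 62 were higher and 139 lower. Overlapping positions share reads, and 12 of the higher ones are the Hk1 exons with the same 13 reads in Dox (-) and 5 in MEF. No share over all exons is given beside these counts.

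Dox (+) against MEF shares the Dox (+) library with the first comparison and the MEF library with the second, so these folds are not separate evidence. The median log2 fold change was 0.87 over the 10 genes and 0.27 over all 12941 genes. Slc2a1, Hk1, Hk2 and Slc16a3 were more than 2-fold higher, 4 of 10 genes against 20.2% of all genes, a share that with 10 genes is not far from that background. Hk1 passed on its exon of 3 bp, and it did not on exons of 100 bp or longer (203 RPKM in MEF and 296 in Dox (+), a log2 fold change of 0.54), with median ratio scaling (0.83) or on exons without shared words (0.93), where 3 genes were left. With housekeeping scaling 6 genes passed, Aldoa and Pdk1 in addition. Slc2a1 and Hk2 were more than 4-fold higher, against 6.55% of all genes. None of the 10 was lower at 2-fold or 4-fold, where 8.98% and 3.40% of all genes were. Exon by exon, 189 of 201 positions were higher in Dox (+) than in MEF, again with reads shared between overlapping positions and no share over all exons beside it. On the highest exon Pgk1 and Eno1 had log2 fold changes of -0.05 and -0.02 between Dox (+) and MEF. These turned to 0.14 and 0.17 when the libraries were scaled to housekeeping genes and to 0.26 and 0.87 with the median over exons, and that of Eno1 was 0.24 on exons without shared words. The value of Pfkp, 0.22, became -0.05 when the median of all genes was set equal. By the order of their highest exons across libraries, the 10 genes can be described in groups: Slc2a1 and Hk2 were lowest in MEF and stood far above it in Dox (+), Hk1, Aldoa, Ldha, Pdk1 and Slc16a3 were lowest in Dox (-) and higher in Dox (+) than in MEF, and Pfkp, Pgk1 and Eno1 were lowest in Dox (-) with MEF and Dox (+) close together. With the median over exons, Eno1 (0.87 above MEF) lay beside Aldoa (0.82) and Ldha (0.98), and Hk1 was lowest in MEF. For Eno1 that median fell on different exons in MEF and Dox (+), and for Hk1 it takes in the nearly empty 5′ exons. The median of the folds at single exon positions, Dox (+) against MEF, was 1.21 for Eno1, 1.12 for Pgk1, 1.75 for Aldoa and 2 for Ldha. By that measure Eno1 stayed beside Pgk1.

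**Figure D4:**
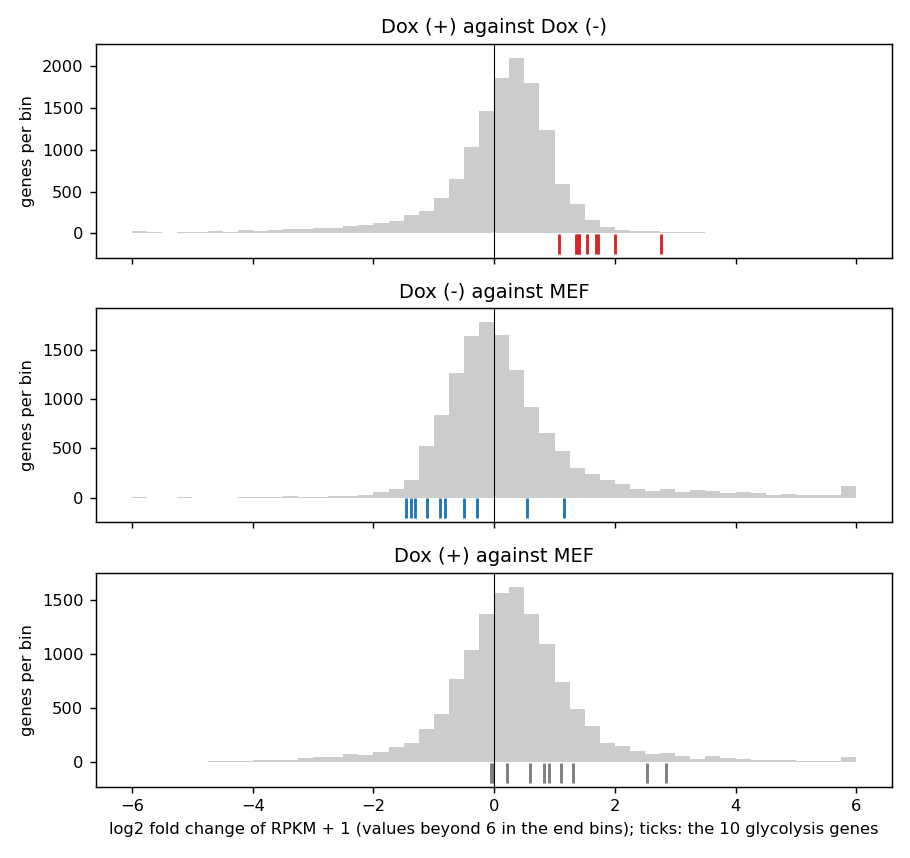
Number of genes by log2 fold change of RPKM + 1 in bins of 0.25, for all genes above 10 RPKM in either library (grey bars), with the 10 genes as ticks under each histogram. In Dox (+) against Dox (-) the ticks run from 1.07 to 2.76, right of the bulk of genes. In Dox (-) against MEF 8 ticks lie below 0, and in Dox (+) against MEF they run from -0.05 to 2.85.

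The remaining glycolytic enzymes were read from a list of 17 genes, all with listed exons and 13 of them above 10 RPKM in Dox (-) or Dox (+). Of these 13, 7 exceeded Dox (-) more than 2-fold in Dox (+) (Gpi1, Pfkl, Tpi1, Gapdh, Pgam1, Pgam2 and Pkm) and 2 were more than 2-fold lower (Aldoc and Hk3), where 10.8% of all genes were higher and 11.1% lower, and their median log2 fold change was 1.28. Pfkl, the liver form of phosphofructokinase, had 657 RPKM in MEF, 327 in Dox (-) and 1150 in Dox (+). Gpi1, glucose phosphate isomerase, had 1206, 762 and 2388 RPKM. Gapdh, often used as a reference gene, had 3439, 2192 and 6004 RPKM, so values scaled to Gapdh would differ from those given here. Both Pfkl and Gpi1 were thus lowest in Dox (-), like most of the 10 genes. Hk3, a hexokinase known from blood cells, had 0 RPKM in MEF, 63.4 in Dox (-) and 4.26 in Dox (+), in the order of the macrophage markers, whose part in this value was not tested. Aldoc, the aldolase of brain, had 12.1, 43.2 and 19.0 RPKM.

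Among 11 other transporters and their chaperones, 7 were above 10 RPKM and the median log2 fold change between Dox (+) and Dox (-) was 0.63, with 2 genes more than 2-fold higher and 2 lower, beside the same 10.8% and 11.1% of all genes. Slc2a3 (GLUT3) had 4.91 RPKM in MEF, 12 in Dox (-) and 33.3 in Dox (+). Slc16a1 (MCT1), the other major lactate carrier, had 22.4, 36.0 and 73.9 RPKM. These carriers, like Slc2a1 and Hk2, were ordered MEF, Dox (-), Dox (+). Slc2a6 was lower in Dox (+), at 20, 61.1 and 11.4 RPKM, and so was Emb, a chaperone of monocarboxylate carriers, at 422, 390 and 179 RPKM. Of 20 genes that act as switches on fructose bisphosphate and on pyruvate entry into mitochondria, 16 were above 10 RPKM, 4 were more than 2-fold higher (Pfkfb3, Pfkfb4, Tigar and Pdhx) and none was more than 2-fold lower, against 10.8% and 11.1% of all genes. Pfkfb3, which makes the activator of phosphofructokinase and is a HIF target, had 76.2, 156 and 575 RPKM. Tigar, which breaks that activator down, had 12.8, 15.8 and 36.7 RPKM. The fructose bisphosphate switches therefore included genes of opposite action that were both higher. Pfkfb2 and Pdp1 had the lowest log2 fold changes of this list, -0.35 and -0.08. In the pentose phosphate pathway, which branches off after hexokinase, 2 of 8 genes were more than 2-fold higher, Pgd (374, 376 and 1003 RPKM) and Pgls (425, 429 and 864 RPKM), none was lower at that fold, where 10.8% and 11.1% of all genes were, and the lowest log2 fold change was that of Rpe, at -0.13.

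HIF factors themselves did not share the pattern of the 10 genes at the level of RNA. Hif1a, the oxygen-regulated subunit, had 356 RPKM in MEF, 419 in Dox (-) and 336 in Dox (+). HIF1A is known to be controlled mainly through its protein, which these data do not measure. Epas1, which encodes HIF2A, had 0.831, 27.2 and 11.5 RPKM, and thus was highest in Dox (-). Among the 9 of 10 genes of HIF control above 10 RPKM, 2 exceeded Dox (-) more than 2-fold in Dox (+) and 1 was lower, against 10.8% and 11.1% of all genes, so these counts were near the background. The higher ones were Egln3 and Egln1, prolyl hydroxylases that mark HIF for destruction and are HIF targets themselves. Egln3 had 16.2 RPKM in MEF, 12.6 in Dox (-) and 150 in Dox (+), and 488 reads stood against 42 where it was highest, an 11.9-fold difference (8.66 to 16.7). Egln1 had 223, 164 and 411 RPKM.

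HIF targets outside glycolysis were read from a list of 20 genes, 19 of which had listed exons and were above 10 RPKM. Of these 19, 10 exceeded Dox (-) more than 2-fold in Dox (+), 5 of them more than 4-fold (Bnip3, Adm, Ndrg1, Ak4 and Bhlhe40), and 1 was more than 2-fold lower (Car12), against 10.8%, 1.64% and 11.1% of all genes, with a median log2 fold change of 1.30. Ak4, a mitochondrial adenylate kinase, had 9.95 RPKM in MEF, 10.6 in Dox (-) and 61.1 in Dox (+). Ndrg1, a gene of the hypoxia and stress response, had 410, 239 and 1085 RPKM. Ak4 was therefore similar in MEF and Dox (-), whereas Ndrg1 was lowest in Dox (-). The list did not move as 1 block. Car12 and Car9, carbonic anhydrases that HIF is known to raise, had 20.4 and 62.2 RPKM in Dox (-) and 7.58 and 33.3 in Dox (+), although Car12 rests on 11 reads against 4 on its highest exon. Against MEF, 7 of the 19 were more than 2-fold higher in Dox (+) and 1 was lower, where 20.2% and 8.98% of all genes were, and the median was 0.40, beside 0.27 for all genes. By comparison, 12 housekeeping genes had a median of 0.28 between Dox (+) and Dox (-), of which Rplp0 and Rpl13a were more than 2-fold higher and Gusb was lower, and Hprt had a log2 fold change of -0.15. These calls depended on the exon. On exons of 100 bp or longer Rpl13a had 2131 RPKM in Dox (-) and 3030 in Dox (+), and Rplp0 had 1737 and 3695. The Rplp0 exon highest in Dox (+) held 661 reads there and 1 in Dox (-).

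**Figure D5:**
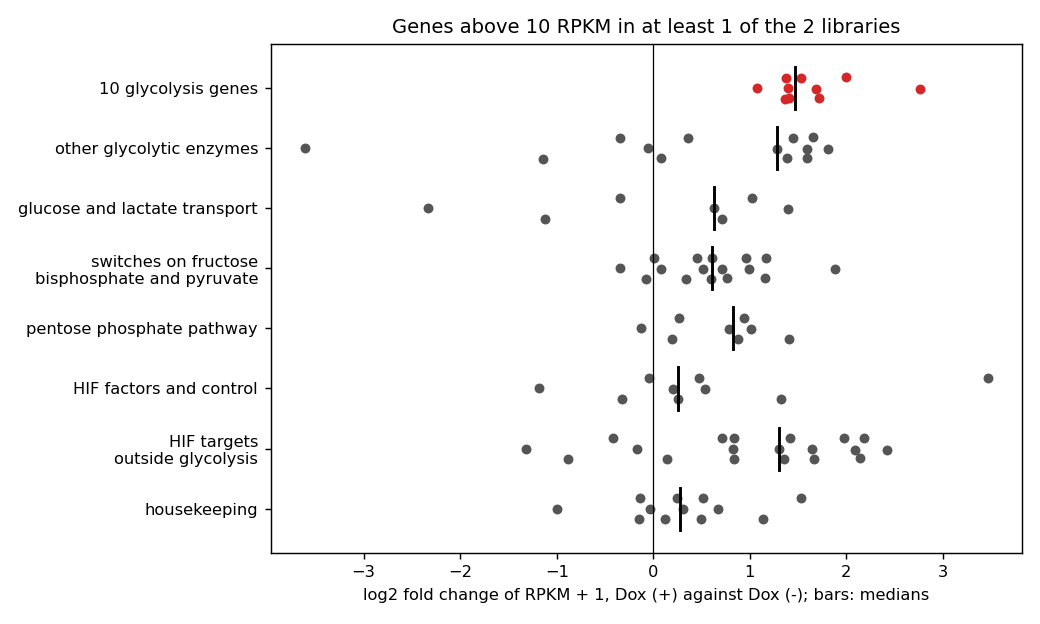
Log2 fold change of RPKM + 1 between Dox (+) and Dox (-) for the 10 genes (red) and 7 further gene lists (grey), 1 point per gene above 10 RPKM in either library, with a bar at each median. The 10 genes lie between 1.07 and 2.76, whereas the other lists also hold genes below 0, such as Hk3 at -3.61 and Epas1 at -1.18.

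Across the 3 libraries the median profile of the 10 genes was 0.04 in MEF, -0.73 in Dox (-) and 0.80 in Dox (+) on a log2 scale centred on the mean of each gene. The genes nearest to this profile among 13577 genes were Vars, Hsp90ab1, Gm1840, Polr2c and Timm50, and 168 genes lay within a distance of 0.25. Vars, which encodes a valyl tRNA synthetase, had 265 RPKM in MEF, 155 in Dox (-) and 446 in Dox (+). Hsp90ab1, an abundant chaperone, had 5172, 3028 and 8863 RPKM. A profile over 3 libraries is shared by many genes, and likeness to it carries no information on shared control.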

How the data were processed

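RNA was extracted from MEF, Dox (-), Dox (+) and PMel cultures, 1 library each, with a poly(A) kit that does not mark strand. Per the labels and the study's methods, the authors converted the run with bcl2fastq 2.17.1.14, aligned reads to mm10 with TopHat2 2.0.10, counted them on exons with bedtools, and the deposited values are RPKM of each exon. No normalization was added here. Of the 4 libraries 3 were used, and 1 column whose name matched no label was left unused, so PMel was not analysed here. In the part of the study's gene list that was read, 14 of 1000 values of MEF, 1228 of 1254 of Dox (-) and 1355 of 1386 of Dox (+) were found among the deposited ones (relative tolerance 0.0001).

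Exons were matched to GENCODE release M21, and 6586 of 234718 could not be matched. Reads were recovered from RPKM, exon length and a whole-number depth searched between 20000000 and 80000000 reads, counting a value as whole within 0.02. Intervals are exact binomial at 95% and cover counting error only. A gene's level was its highest exon. Genes above 10 RPKM in either library and more than 4-fold (or 2-fold) apart were counted as called, without a pseudocount, and log2 fold changes used a pseudocount of 1 RPKM. No p-value was computed. Exons were compared with all other genes by shared words of 50 bases. The 5′ to 3′ ratio used genes with 6 or more exons of at least 100 bp.

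The genes and lists were chosen with earlier results of these data known. The text names all 10 genes and, from each other pathway, near copy and housekeeping list, the 2 largest rises and falls between Dox (+) and Dox (-) above 10 RPKM. Lists of cell type markers are given by their sums. Gapdh, Tpi1, Lyz2, Krt5 and other names given with counts or sums were added after their values were seen. The calculations were also tested on simulated data for Dox (-) against itself over 22835 genes, in which 197 of 200 genes changed 8-fold were called and 2 of 12814 unchanged ones were. That change is larger than the highest-exon fold of any of the 10 genes between Dox (+) and Dox (-). The simulation held no difference between cultures, so it checks the calculation and not the calls made here. Python 3.11.15, pandas 2.3.3, NumPy 2.4.6, SciPy 1.17.1 and matplotlib 3.10.9 were used.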

Additional observations from a re-analysis of the deposited data

How the results depend on the processing

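All 10 genes stayed higher in Dox (+) than in Dox (-) under every alternative run, and none was lower. The count past 2-fold, 10, became 9 with median ratio scaling and with housekeeping scaling (without Pgk1) and 9 on the last exon (without Pfkp). Past 4-fold, the count of 2 genes became 10 at 2-fold and 1 (Slc16a3) after scaling the libraries to the median ratio of all genes (1), after scaling to housekeeping genes (1) and on the last exon (1). The median log2 fold change, 1.47, became 1.61 with the median over exons, 1.24 with median ratio scaling, 1.19 with housekeeping scaling, and 1.63 both on exons of 100 bp or longer and on exons without shared words. For Dox (-) against MEF, 2-fold in place of 4-fold gave 1 higher and 4 lower genes in place of 0, and the 1 gene past 2-fold became 0 with the median over exons and on the last exon. The median there, -0.85, became -0.66 with the median over exons and -0.54 with housekeeping scaling. For Dox (+) against MEF, 4 genes in place of 2 passed at 2-fold, which became 3 (without Hk1) with median ratio scaling, on exons of 100 bp or longer and on exons without shared words, and 6 with housekeeping scaling, and the median of 0.87 became 0.98 with the median over exons, 0.60 with median ratio scaling, 1.05 with housekeeping scaling, 0.68 on exons of 100 bp or longer and 0.70 on the last exon. Single genes reversed in 9 cases. Against MEF, Hk1 in Dox (-) became 0.09 with the median over exons and 0.04 with housekeeping scaling. In Dox (+), Pfkp became -0.05 with median ratio scaling and -0.23 on the last exon, part of which overlaps Pitrm1. In the same comparison Pgk1 became 0.26 with the median over exons and 0.14 with housekeeping scaling. Eno1 there became 0.87 with the median over exons, 0.17 with housekeeping scaling and 0.24 on exons without shared words. The medians over exons of Hk1 and Eno1 carry the limits given above. The cause was not tested. The alternatives on exon length, shared words and the last exon were chosen after seeing the data. No paired analysis was possible because each condition had 1 library and the labels give no replicate numbers, and leaving out a replicate was not run for the same reason. Comparisons with PMel were not run. For genes with many reads, counting error was small beside the differences between exons. Between Dox (+) and Dox (-), Aldoa had an interval of 3.20 to 3.39 and exon folds of 2.05 to 5.53. For Pdk1, with fewer reads, it was not small, with an interval of 2.92 to 4.35 and exon folds of 2.37 to 3.80. The spread between cultures is unknown.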
